A study of Mus musculus with 10 samples.

Results

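The genes described here drive DNA replication and cell division, and 45 of them were followed in BMEL cells, an embryonic mouse liver line that can take on hepatocyte or bile duct features. Each gene was represented by the probe set (the group of array probes for 1 transcript) that names it alone, and where several did, by the brightest over the 10 arrays. Of the 45 genes, 44 had such a probe set, all but the cyclin gene Ccnb1. For 43 it lay above the level of 4.56 on the log2 scale below which 40% of the array's probe sets fall, all but the inhibitor gene Cdkn2a. These 43 are set among 12633 genes tested. The filter used the mean over both groups. The 45 comprise 14 replication (S phase) genes, 14 genes that control the step from G1 into S phase, and 17 genes of G2 phase and mitosis, of which 14, 13 and 16 were tested.

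Total RNA was profiled on 10 single-colour arrays. In the antisense group (5 arrays) the cells had received, with Oligofectamine, a locked nucleic acid (LNA) oligonucleotide antisense to miR-30a, and in the scrambled group (5 arrays) an LNA oligonucleotide of scrambled sequence. All arrays thus come from transfected cells of a single line. The sources used here give neither dose nor time. They do not say that the 5 arrays of a group hold separate cultures, so each p-value reflects array-to-array spread alone, which could be technical. The labels imply 1 comparison, antisense against scrambled.

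The epithelial and hepatic markers of the line were bright on all arrays for Krt8 (mean of 13.76 in antisense and 13.77 in scrambled arrays), Krt19 and Hnf4a, whereas albumin, Alb, lay near the filter level (4.70 and 4.73). All 9 markers listed for the line were tested and none was called (smallest limma adjusted p = 0.0662). Log2 changes, antisense minus scrambled, ran from -0.04 to 0.17. Groups did not overlap for 1 of the 9, or 11.1%, against 3.92% of all genes tested. Of 18 markers of mesenchymal, endothelial and blood cells, 12 were above the filter level. These were Acta2, Col1a2, Dcn, Des and Pdgfrb (mesenchymal), Kdr, Flt1 and Erg (endothelial), and Cd68, Csf1r, Cx3cr1 and Fcgr1 (blood and macrophage). Their median levels were 5.16, 6.09 and 5.26 in that order. Below the filter level were Ptprc, Adgre1, Pecam1, Cdh5, Tie1 and Col1a1. The only change called among the 12 was a rise of Cd68, a macrophage and lysosome gene, by 0.39 (limma adjusted p = 0.0176). Its part in the results below was not tested. Array medians lay between 5.21 and 5.24.

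A cell that commits to division passes a restriction point at which cyclin D with CDK4 or CDK6, then cyclin E with CDK2, phosphorylate the retinoblastoma proteins and release E2F transcription factors. E2F in turn drives the genes for the MCM helicase, its loaders CDC6 and CDT1, the GINS complex, the PCNA clamp and the nucleotide-making enzymes. Later, cyclins A and B with CDK1, the Aurora and Polo kinases and the spindle checkpoint proteins carry the cell through mitosis, and their genes are controlled largely through promoter elements called CHR and CCAAT. Transcript levels of the mitotic genes rise with the share of dividing cells, which makes them common markers of proliferation. In a bulk sample, fewer dividing cells and less RNA per dividing cell cannot be told apart.

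The oligonucleotide's target belongs to a microRNA family whose members share a seed, bases 2 to 8, by which they pair with their target transcripts. The labels do not say which arm of miR-30a it was made against. The mature sequences below show both arms of miR-30a beside the 5p forms of miR-30c and miR-30e, and they come from RefSeq (GRCm38.p6). Capitals mark the seed.
miR-30a-5p: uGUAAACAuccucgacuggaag
miR-30c-5p: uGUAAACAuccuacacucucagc
miR-30e-5p: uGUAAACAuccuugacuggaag
miR-30a-3p: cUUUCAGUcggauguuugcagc
All 5p forms shown carry the same seed, whereas the 3p arm of miR-30a has another. The Mir30a 5p arm lies at chr1:23272274-23272295 on the plus strand.

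None of the 43 cell cycle genes passed the test with the antisense oligonucleotide, in either direction (limma with Benjamini-Hochberg adjustment over all 12633 genes, threshold 0.05). Over all genes tested, 193 passed, or 1.53%, with 1.16% higher and 0.372% lower. At an unadjusted p under 0.05 there was 1 cell cycle gene, the proliferation marker Mki67, or 2.33% of the 43, against 12.9% of all genes. No cell cycle gene had groups that did not overlap, which held for 3.92% of all genes. Every change given is the log2 value in antisense minus that in scrambled arrays. The median change was -0.0051 for the 43 genes and 0.0084 for all genes tested, with a median size of 0.027 and 0.047. Below 0 lay 25 of the 43 (58.1%) and 44.9% of all genes. Treating the shared replicate numbers as pairs (a replicate block) also gave 0 cell cycle genes, against 385 genes or 3.05% over all, and at an unadjusted p it gave Mki67, Bub1b and Cdk6, or 6.98% of the 43, against 17.2%.

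A missed threshold does not show that levels were equal, so the 95% intervals of the changes were set against a difference of 1.25-fold, or 0.32 on the log2 scale, a bound chosen after the values were seen. For 42 of 43 genes the whole interval lay within 1.25-fold in both directions, as it did for 93.3% of all genes tested. The exception was Cdc6, with an interval of -0.11 to 0.33. These intervals cover only the brightest probe set of each gene, and other probe sets were not set against the bound. They reflect array-to-array spread alone and are not adjusted for the number of genes.

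**Figure D1:**
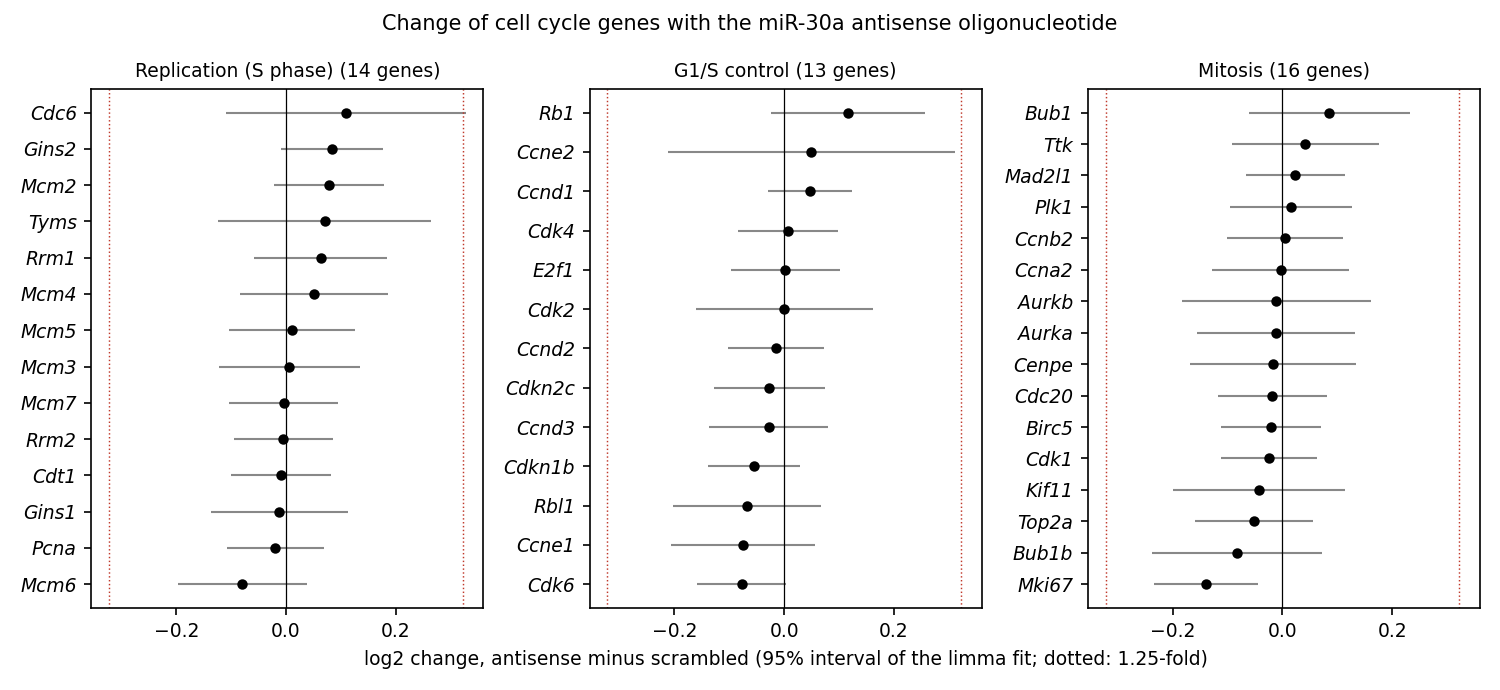
Log2 change (antisense minus scrambled, horizontal axis) of each of the 43 tested cell cycle genes, in 3 panels by role. Points are differences of 5 against 5 arrays, bars are 95% intervals of the limma fit, and dotted lines mark 1.25-fold. All bars cross 0 except that of Mki67, and all stay within the dotted lines except the upper end of Cdc6.

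Among the 14 replication genes, 8 were above 0 and 6 below, and none passed the test. Their changes ran from -0.08 to 0.11, with a median of 0.0086. The MCM proteins form the ring-shaped helicase that opens the double helix. Mcm2 had values of 10.02, 10.15, 10.04, 10.15 and 10.01 in antisense replicates 1 to 5, and of 9.96, 10.07, 10.03, 10.003 and 9.91 in scrambled replicates 1 to 5. The antisense array was the higher of each of the 5 pairs, but the groups overlapped, and replicates 2 and 4 carried the highest antisense values. The group means were 10.07 ± 0.073 (SD, n = 5) and 9.99 ± 0.064 (SD, n = 5) (log2 change 0.08, SE 0.046, adjusted p = 0.534). Mcm6 leaned the other way. It read 10.56, 10.69, 10.64, 10.64 and 10.55 in antisense and 10.78, 10.79, 10.76, 10.62 and 10.54 in scrambled arrays. Scrambled replicates 1 to 3 lay above all antisense arrays, whereas scrambled replicate 5 was the lowest of the 10 (log2 change -0.08, SE 0.054, adjusted p = 0.604). Members of 1 hexamer therefore lay on both sides of 0. Mcm4 was at 0.05, Mcm5 at 0.01 and Mcm3 at 0.01. The 5 probe sets of Mcm3 ran from -0.02 to 0.14, the highest being that of the dimmest.

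Mcm7 was among the brightest of the replication genes. It had values of 12.03, 12.11, 12.02, 12.07 and 11.99 in antisense and 12.10, 12.06, 12.07, 12.09 and 11.90 in scrambled arrays. Scrambled replicate 5 was the lowest of the 10, and the rest overlapped closely (change -0.00 with an interval of -0.10 to 0.09). Its sign turned positive when antisense replicate 3 or 5, or any of scrambled replicates 1 to 4, was left out. GINS2 is a subunit of the complex that activates the helicase. Gins2 read 9.10, 9.06, 9.09, 9.21 and 9.08 in antisense and 8.96, 9.10, 9.01, 9.07 and 8.99 in scrambled arrays. Antisense replicate 4 was the highest of the 10, and scrambled replicates 1, 3 and 5 lay below all antisense arrays (log2 change 0.08, SE 0.043, adjusted p = 0.445). Its partner subunit gene Gins1 was at -0.01.

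PCNA, the sliding clamp of the DNA polymerases, had the brightest transcript of the 43. Pcna read 12.79, 12.83, 12.79, 12.86 and 12.79 in antisense and 12.72, 12.90, 12.87, 12.87 and 12.80 in scrambled arrays. The antisense values fell inside the scrambled range, with means of 12.81 ± 0.031 (SD, n = 5) and 12.83 ± 0.069 (SD, n = 5) (log2 change -0.02, SE 0.041, adjusted p = 0.911). Ribonucleotide reductase supplies the deoxynucleotides, and its large subunit gene Rrm1 read 10.34, 10.52, 10.39, 10.45 and 10.30 in antisense and 10.31, 10.42, 10.44, 10.32 and 10.20 in scrambled arrays. Replicate 5 was the lowest array of both groups and the groups overlapped (log2 change 0.06, SE 0.056, adjusted p = 0.721). Without scrambled replicate 5 or antisense replicate 2 the change was 0.03. The small subunit gene Rrm2 was at -0.01.

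The helicase loader genes differed in precision. Cdt1 was at -0.01 (SE 0.042) and Cdc6 at 0.11 (SE 0.101). A second, dimmer Cdt1 probe set was at 0.09 (SE 0.052), so the value for Cdt1 depends on the probe set. Cdc6 ran from 7.67 in antisense replicate 5 to 8.29 in antisense replicate 2, a spread within the group wider than its change. Tyms, the gene of thymidylate synthase, was the dimmest gene tested of the 43, at a mean of 5.00, and had a change of 0.07 (SE 0.090).

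Of the 13 tested genes of G1/S control, 5 were above 0 and 8 below, and none passed. The median change was -0.015, with a range of -0.08 to 0.12. Cyclin D1, the partner of CDK4 and CDK6, was the second brightest of the 43. Ccnd1 read 12.26, 12.31, 12.27, 12.32 and 12.23 in antisense and 12.22, 12.26, 12.24, 12.26 and 12.19 in scrambled arrays. The antisense array was the higher of each of the 5 pairs and the groups overlapped (log2 change 0.05, SE 0.035, adjusted p = 0.646). Cyclin D2 is encoded by Ccnd2, which read 11.86, 11.90, 11.91, 11.93 and 11.79 in antisense and 11.94, 11.82, 11.89, 11.89 and 11.92 in scrambled arrays. Antisense replicate 5 was the lowest of the 10 and the other values were mixed (log2 change -0.01, SE 0.040, adjusted p = 0.932). Ccnd3 was at -0.03.

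CDK6 is a kinase that cyclin D activates. Cdk6 read 10.59, 10.69, 10.60, 10.61 and 10.60 in antisense and 10.66, 10.75, 10.70, 10.71 and 10.65 in scrambled arrays. The antisense array was the lower of each of the 5 pairs, and the groups overlapped only through antisense replicate 2 (log2 change -0.08, SE 0.038, adjusted p = 0.418, and 0.26 with the replicate block). Its sign depends on the probe set: a second one changed by -0.03, and a dimmer one by 0.18. The related kinase gene Cdk4 was at 0.01 and Cdk2, the partner of cyclin E, at -0.00 with an interval of -0.16 to 0.16. The cyclin E genes Ccne1 and Ccne2 were at -0.08 and 0.05, and Ccne2 had the widest standard error of the 43 (SE 0.121).

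The pocket proteins RB1 and RBL1 hold E2F inactive until they are phosphorylated. Rb1 had the largest increase in value of the 43, which did not pass the test. It read 8.10, 8.04, 8.27, 8.09 and 8.07 in antisense and 8.21, 7.95, 8.04, 7.89 and 7.91 in scrambled arrays. Antisense replicate 3 and scrambled replicate 1 were the highest of the 10, and the other values of the groups met near 8.04 (log2 change 0.12, SE 0.065, adjusted p = 0.504). Without antisense replicate 3 the change was 0.08. Rbl1 was at -0.07, and the E2F gene E2f1 at 0.00 with an interval of -0.10 to 0.10.

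The G1/S control genes also include those of CDK inhibitors. Cdkn1b, which encodes p27, read 9.98, 9.90, 9.94, 9.99 and 9.86 in antisense and 9.98, 9.94, 10.03, 9.998 and 9.99 in scrambled arrays. It was lower in the antisense array of each of the 5 pairs, by little in replicates 1 and 4 (log2 change -0.05, SE 0.039, adjusted p = 0.623). Cdkn2c, which encodes p18, was at -0.03. Cdkn2a, which encodes p16 and p19ARF, was not tested. It lay below the filter level on every array, between 3.92 and 4.29, so no change can be read for it.

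**Figure D2:**
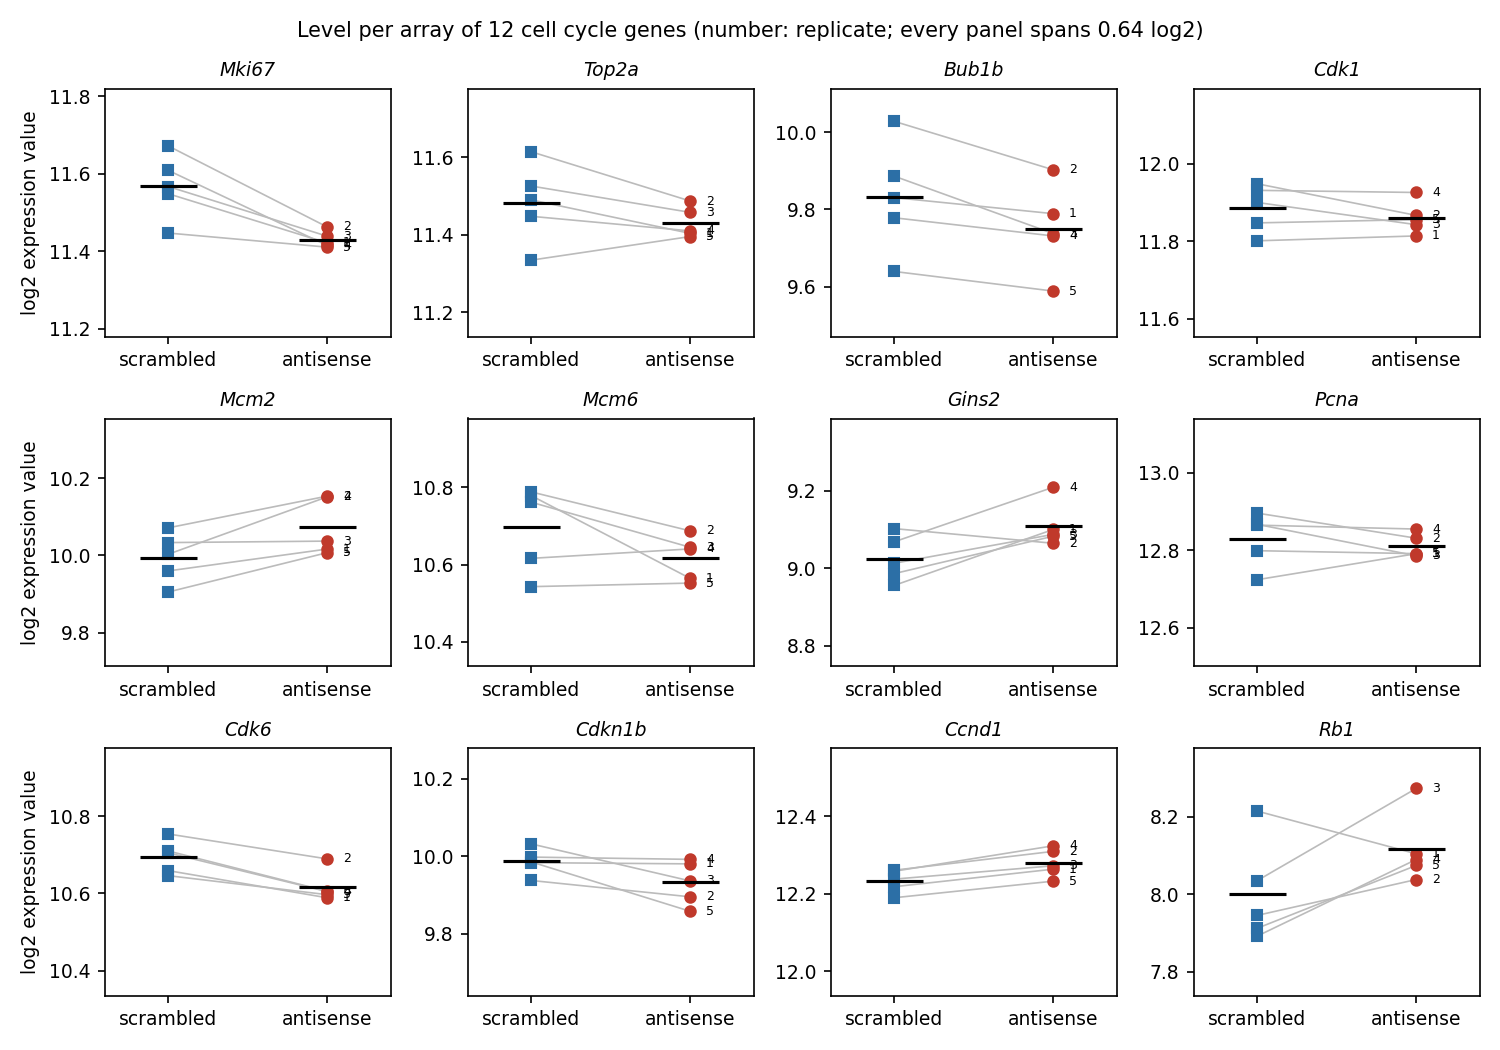
Log2 expression value (vertical axis, all panels spanning 0.64) of 12 cell cycle genes in the 5 scrambled (squares) and 5 antisense (circles) arrays. Thin lines join arrays of the same replicate number, printed beside the antisense value, and black bars are group means. Mki67, Bub1b, Cdk6 and Cdkn1b fall along all 5 lines, Mcm2 and Ccnd1 rise along all 5, and the groups overlap in each panel.

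Of the 16 tested genes of G2 phase and mitosis, 5 were above 0 and 11 below, and none passed. Their median change was -0.014, with a range of -0.14 to 0.09. Mki67, which encodes the Ki-67 protein that coats mitotic chromosomes, had the largest change in size of the 43. It read 11.42, 11.46, 11.44, 11.41 and 11.41 in antisense and 11.55, 11.67, 11.57, 11.61 and 11.45 in scrambled arrays. The antisense array was the lower of each of the 5 pairs. The antisense values lay close together, and the groups overlapped only because scrambled replicate 5 was below antisense replicate 2. The means were 11.43 ± 0.021 (SD, n = 5) and 11.57 ± 0.083 (SD, n = 5) (log2 change -0.14, SE 0.043, interval -0.23 to -0.04, adjusted p = 0.163). With the replicate block the adjusted p was 0.0965. Under an intensity trend with robust moderation it was 0.0495, and Mki67 was then the 1 cell cycle gene called. Mki67 has a single probe set here.

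Topoisomerase II alpha untangles sister chromatids, and its gene Top2a follows proliferation like Mki67. Top2a read 11.40, 11.49, 11.46, 11.41 and 11.39 in antisense and 11.49, 11.61, 11.53, 11.45 and 11.33 in scrambled arrays. It was lower in the antisense array of 4 pairs, but scrambled replicate 5 was the lowest of the 10 (log2 change -0.05, SE 0.050, adjusted p = 0.747). The change was -0.02 without scrambled replicate 2 and -0.09 without scrambled replicate 5. CDK1 is the kinase that starts mitosis. Cdk1 read 11.81, 11.87, 11.84, 11.93 and 11.86 in antisense and 11.80, 11.95, 11.90, 11.93 and 11.85 in scrambled arrays. The antisense values fell inside the scrambled range (log2 change -0.02, SE 0.041, adjusted p = 0.872). The cyclin genes that serve CDK1, Ccna2 and Ccnb2, were at -0.003 and 0.004. A second Ccna2 probe set was at -0.10.

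The spindle checkpoint holds chromosomes until all are attached, and its genes lay on both sides of 0. Bub1 read 10.25, 10.37, 10.23, 10.17 and 10.11 in antisense and 10.26, 10.24, 10.19, 10.10 and 9.92 in scrambled arrays. Replicate 5 was the lowest of both groups (log2 change 0.09, SE 0.068, adjusted p = 0.675). The change was 0.03 without scrambled replicate 5 and 0.05 without antisense replicate 2. Bub1b, which encodes BUBR1, read 9.79, 9.90, 9.74, 9.73 and 9.59 in antisense and 9.83, 10.03, 9.89, 9.78 and 9.64 in scrambled arrays. It was lower in the antisense array of each of the 5 pairs, while its spread over replicates was wider than the change: replicate 2 was the highest and replicate 5 the lowest of both groups (log2 change -0.08, SE 0.072, adjusted p = 0.711). Its change was -0.03 without scrambled replicate 2, -0.04 without antisense replicate 5 and -0.13 without scrambled replicate 5. A second Bub1b probe set was at -0.13 and a dimmer one at 0.01. Mad2l1 read 11.56, 11.59, 11.55, 11.66 and 11.53 in antisense and 11.47, 11.61, 11.57, 11.60 and 11.54 in scrambled arrays. Antisense replicate 4 lay above and scrambled replicate 1 below all arrays of the other group, and the rest overlapped (log2 change 0.02, SE 0.042, adjusted p = 0.884). The checkpoint kinase gene Ttk was at 0.04.

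The mitotic kinase genes Aurka, Aurkb and Plk1 were at -0.01, -0.01 and 0.02. Birc5, which encodes survivin, the partner of Aurora B, was at -0.02. Cdc20, the activator of the anaphase-promoting complex, was at -0.02. The motor genes Kif11 and Cenpe were at -0.04 and -0.02. The dimmest Kif11 probe set stood at -0.27, and a second Cenpe probe set at 0.13.

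The pairs gave a background for these one-way genes. In 4 of the 43 (Mki67, Cdk6, Cdkn1b and Bub1b), or 9.3%, every pair had its lower value in antisense, against 6.71% of all genes. Higher in all 5 were 3 (Mcm2, Mcm4 and Ccnd1), or 6.98%, against 10.6%. In 31 genes more than 1 probe set lay above the filter level, and in 18 of these all such probe sets had the same sign. When all 22744 probe sets above the level were tested with limma, none of the 92 that belong to the 43 genes passed, against 0.686% of all. At an unadjusted p under 0.05 there were 4 of the 92, or 4.35%, against 11.2%.

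Mean levels of the 3 roles differed more between arrays of a group than between the groups. The mean level of the 14 replication genes was 10.07 ± 0.069 (SD, n = 5) in antisense and 10.04 ± 0.075 (SD, n = 5) in scrambled arrays, a difference of 0.02. Across the 5 scrambled arrays it ranged over 0.20 and across the 5 antisense arrays over 0.17. The 16 mitosis genes had means of 10.35 ± 0.047 (SD, n = 5) and 10.37 ± 0.088 (SD, n = 5), a difference of -0.02, with ranges of 0.23 in scrambled and 0.13 in antisense arrays. For the 13 G1/S control genes the difference was -0.01 and the ranges 0.10 and 0.15. The differences of the replication and mitosis genes were smaller than the SD between arrays, and the signs of the role medians turned with single arrays. The replication and mitosis medians were both above 0 without scrambled replicate 2 (0.025 and 0.011) or 3 (0.020 and 0.0046). Both were below 0 without antisense replicate 2 (-0.015 and -0.031) or scrambled replicate 5 (-0.019 and -0.038).

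Replicate 2 stood high and replicate 5 low in both groups. For the mitosis genes, the mean deviation from each gene's average was -0.02, 0.06, -0.01, 0.00 and -0.07 in antisense replicates 1 to 5, and -0.02, 0.11, 0.05, 0.02 and -0.12 in scrambled replicates 1 to 5. For the replication genes it was -0.04, 0.11, 0.02, 0.04 and -0.06 in antisense replicates, and -0.02, 0.07, 0.03, 0.00 and -0.13 in scrambled replicates. Over all genes tested no array deviated by more than 0.02. Of the 43 genes, 28 had their highest antisense value in replicate 2 and 27 their highest scrambled value there, against 24.4% and 21.3% of all genes. Replicate 5 held the lowest antisense value of 23 and the lowest scrambled value of 28, against 17.5% and 23.9%.

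**Figure D3:**
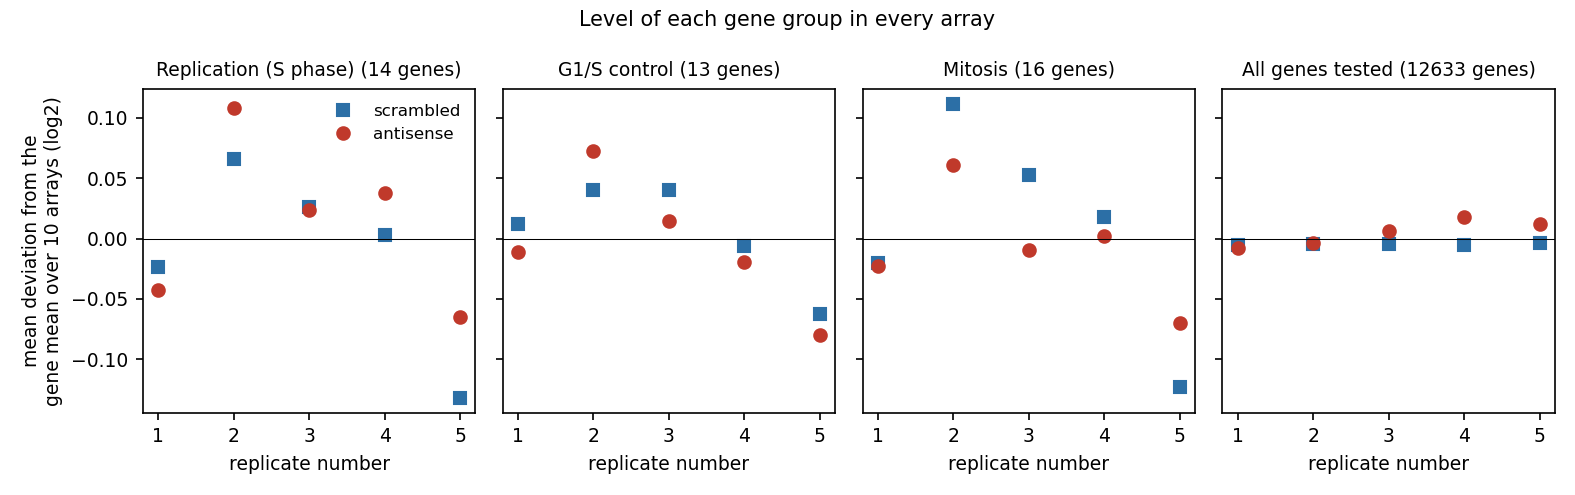
Mean deviation of the genes of each role, and of all genes tested, from their average over 10 arrays (vertical axis, log2) in every array, by replicate number. Squares are scrambled and circles antisense arrays. Replicate 2 is the highest and replicate 5 the lowest of both groups in the 3 cell cycle panels, apart from a near tie with replicate 3 among the scrambled G1/S values, and all genes tested stay near 0.

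Replicate 2 exceeded replicate 5 in both groups for 36 of the 43 genes, or 83.7%, against 32.2% of all genes tested. This held for 15 of 16 mitosis genes, 12 of 14 replication genes and 9 of 13 G1/S genes. The median difference between replicates 2 and 5 was 0.24 in scrambled and 0.15 in antisense arrays for the mitosis genes, and 0.18 and 0.13 for the replication genes. Bub1b differed by 0.39 and 0.31, Cenpe by 0.38 and 0.18, Cdc6 by 0.26 and 0.62, and Ccne2 by 0.25 and 0.77. The clamp gene Pcna differed by 0.10 and 0.04, and Ccnd1 by 0.07 and 0.08. These replicate numbers were picked after their values were seen. The counts are therefore a description with no test.

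**Figure D4:**
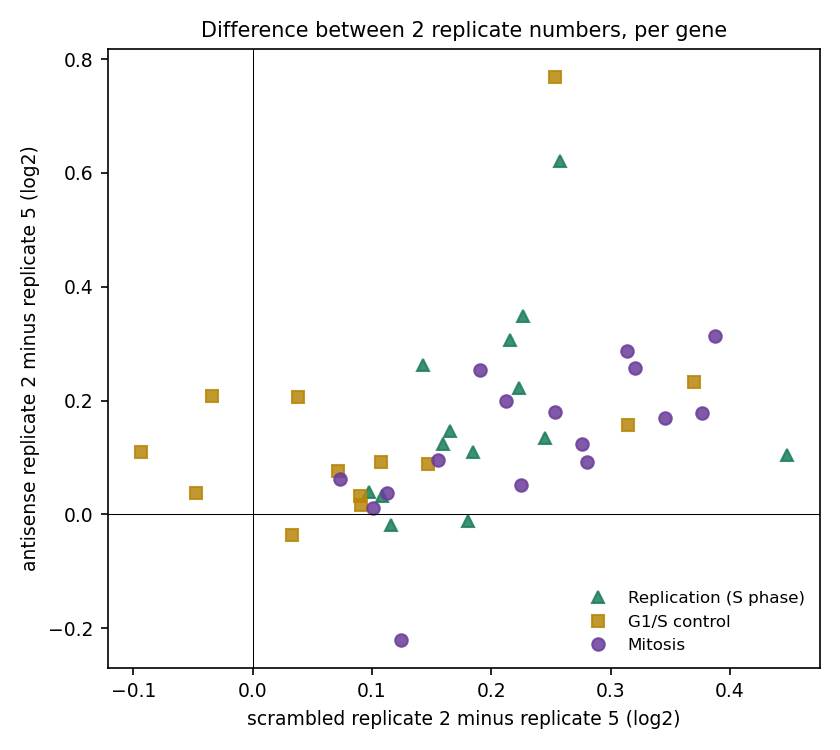
Difference between replicates 2 and 5 (log2) for each of the 43 cell cycle genes, in scrambled (horizontal axis) and antisense arrays (vertical axis), with symbols by role. Of the 43 points, 36 lie at the upper right, where replicate 2 is higher in both groups. The topmost points are Ccne2 (0.77) and Cdc6 (0.62).

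The distribution of whole arrays moved with these numbers in the scrambled group. The 75th percentile of all probe sets was 7.51 in scrambled replicate 2 and 7.43 in scrambled replicate 5, the lowest of the 10, and 7.50 in both antisense replicates 2 and 5. After quantile normalization, which makes all array distributions alike, the mean level of replicate 2 minus that of replicate 5 was 0.21 in scrambled and 0.13 in antisense arrays for the mitosis genes, and 0.18 and 0.17 for the replication genes. For the G1/S genes it was 0.06 and 0.15, against 0.10 and 0.15 as deposited. The log2 signal of the 3′ end over the 5′ end of the control transcript of Actb, a sign of RNA integrity, was 0.21 and 0.22 in scrambled and antisense replicate 2, the lowest of each group, and 0.28 and 0.24 in replicate 5. It was highest in replicate 1 of both groups, at 0.34 and 0.26. The same measure for Gapdh was lowest in scrambled replicate 2 (-0.09) but highest of its group in antisense replicate 2 (-0.04), and -0.07 in replicate 5 of both groups. The part of RNA integrity in the pattern was not tested.

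Promoters are shown for 3 of the 36 genes that were higher in replicate 2 of both groups: Mki67, which also had the largest change with the oligonucleotide, Cdk1 of mitosis and Mcm6 of replication. Each stretch holds the 120 bases before the transcript start, from RefSeq (GRCm38.p6), all on the minus strand: chr7:135716380-135716499 for Mki67, chr10:69352913-69353032 for Cdk1 and chr1:128359706-128359825 for Mcm6. Capitals mark, on either strand, the CHR letters TTTGAA, the CCAAT letters, and the E2F letters TTTCCCGC, TTTCGCGC, TTTGCCGC or TTTGGCGC.
Mki67: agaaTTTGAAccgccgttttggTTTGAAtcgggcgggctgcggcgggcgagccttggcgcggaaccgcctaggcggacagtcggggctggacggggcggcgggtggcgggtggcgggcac
Cdk1: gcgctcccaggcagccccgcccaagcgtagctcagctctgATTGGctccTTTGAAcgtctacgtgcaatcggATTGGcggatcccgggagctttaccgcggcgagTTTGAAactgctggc
Mcm6: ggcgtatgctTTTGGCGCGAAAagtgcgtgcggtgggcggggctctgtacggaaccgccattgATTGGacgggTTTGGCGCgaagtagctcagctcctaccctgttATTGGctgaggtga
The Mki67 stretch holds 2 CHR matches, the Cdk1 stretch 2 CHR and 2 CCAAT matches, and the Mcm6 stretch 3 E2F matches, of which 2 overlap, and 2 CCAAT matches.

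In the 250 bases before the start, on both strands, CHR letters were found in 6 of 15 mitosis genes with a listed promoter, 1 of 11 replication genes and 0 of 10 G1/S genes, against 18.3% of 27025 genes. E2F letters were found in 1 of 15, 4 of 11 and 3 of 10, against 2.16%. CCAAT letters were found in 13 of 15, 8 of 11 and 3 of 10, against 37.5%. These are matches of letters, and say nothing on which factor binds.

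The wider pathway was read from lists of further genes with the same roles. Of 42 other replication genes 40 were above the filter level and none passed, with 17 above 0 and 23 below and a median of -0.015. Pold1, the catalytic subunit gene of DNA polymerase delta, read 8.85, 8.73, 8.78, 8.97 and 8.75 in antisense and 8.92, 9.004, 8.87, 8.99 and 8.88 in scrambled arrays. It was lower in the antisense array of each of the 5 pairs and the groups overlapped (log2 change -0.11, SE 0.052, adjusted p = 0.375). Cdc7, which encodes a kinase that fires origins, read 7.37, 7.68, 7.48, 7.51 and 7.34 in antisense and 7.66, 7.67, 7.71, 7.56 and 7.45 in scrambled arrays. Antisense was the lower array in 4 of 5 pairs (log2 change -0.14, SE 0.068, adjusted p = 0.44).

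Of 46 other mitosis genes 45 were above the filter level and none passed, with 21 above 0 and 24 below and a median of -0.0055. Cdc25c, which encodes a phosphatase that activates CDK1, read 7.57, 7.55, 7.52, 7.42 and 7.51 in antisense and 7.69, 7.73, 7.64, 7.67 and 7.52 in scrambled arrays. It was lower in the antisense array of each of the 5 pairs (log2 change -0.13, SE 0.047, adjusted p = 0.233), but its most variable probe set was at 0.07. Ube2s, which encodes a ubiquitin-conjugating enzyme of the anaphase-promoting complex, read 11.42, 11.63, 11.50, 11.56 and 11.57 in antisense and 11.22, 11.43, 11.41, 11.49 and 11.42 in scrambled arrays. It was higher in the antisense array of each of the 5 pairs (log2 change 0.14, SE 0.056, adjusted p = 0.288). Neither gene's groups were apart.

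Of 31 other G1/S control genes 1 passed, against 1.53% of all genes tested. It was the CDK inhibitor gene Cdkn1a, which encodes p21 and is a target of p53. Cdkn1a read 11.84, 11.82, 11.85, 11.91 and 11.92 in antisense and 11.69, 11.64, 11.67, 11.68 and 11.73 in scrambled arrays. Every antisense array lay above every scrambled array (log2 change 0.19, SE 0.037, adjusted p = 0.0254). Groups that did not overlap were found for 1 of the 31 genes, or 3.23%, against 3.92% of all genes tested. Adjusted p-values between 0.0536 and 0.0724 were found when antisense replicate 3, 4 or 5 or scrambled replicate 2, 3 or 4 was left out. Cdkn2d, which encodes the inhibitor p19, read 8.60, 8.60, 8.71, 8.70 and 8.68 in antisense and 8.67, 8.75, 8.75, 8.82 and 8.78 in scrambled arrays. Every pair had its lower value in antisense, and the gene did not pass (log2 change -0.10, SE 0.041, adjusted p = 0.319). No other gene of this list was called, and the median change of its 31 genes was 0.0066.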

How the data were processed

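Each array's deposited file column holds 1 log2 value for each probe set. How the authors summarised, background-corrected and normalized them is not given in the sources used here. The highest value, 14.18, shows the base of the log2 scale: it exceeds the natural log of a 16-bit scanner ceiling (11.09). The number of arrays limits the precision.

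Of 45101 probe sets, 34945 had 1 gene symbol in the platform annotation, 34741 of them matched to a current gene by identifier. Those with several symbols (932) and 64 array controls were left out. The brightest probe set of each of 18193 genes was kept, and the 12633 genes with a mean of at least 4.56 entered a two-sided limma test (version 3.58.1, R 4.3.3, lmFit then eBayes). P-values were adjusted over all of these genes by Benjamini-Hochberg. The procedure was also run on simulated data, with noise drawn independently for each gene and array. All changes added there were larger than those of the tested cell cycle genes. It therefore does not show how well changes of their size, or deviations shared between genes, are handled. Figures used matplotlib 3.10.9 in Python 3.11.15.

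The members and lists were chosen with earlier results of these data known. Values by array are given for the 4 genes of each role with the smallest p and the 2 brightest, and for the 2 smallest p and all calls of each wider list. Groups and replicate numbers come from the sample titles. Within each replicate number, the antisense and scrambled deviations from the group mean had correlations of 0.172, 0.377, 0.112, 0.152 and 0.335 over the tested genes. All are above 0.1, the rule by which the numbers were taken to pair the arrays. Arrays of different number correlated from -0.312 to 0.231, and antisense replicate 3 did so more with scrambled replicate 1 (0.231) than with its own number. Also above 0.1 were antisense replicate 2 with scrambled replicate 3 (0.195), antisense 1 with scrambled 5 (0.162) and antisense 4 with scrambled 5 (0.119). The rule therefore does not single out arrays of the same number. No label states a shared culture or day. The alternatives were the replicate block, 2 scalings, 2 filters, 2 probe set rules, another variance model and each array left out.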

Additional observations from a re-analysis of the deposited data

Results flagged for a closer look

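In 6 of 92 sets of 5 arrays (43 genes and 3 role means in each group), or 6.52%, the highest or lowest array stood far from its neighbour for the range of the set. Chance gives about 1 in 20. Antisense replicate 2 stood high for Cdk6, at 10.69 against a mean of 10.60 for the other 4, and for Aurka, at 10.29 against 10.10. Antisense replicate 4 stood high for Gins2, at 9.21 against 9.08, and antisense replicate 3 for Rb1, at 8.27 against 8.08. Antisense replicate 5 stood low for Kif11, at 8.72 against 8.99, and scrambled replicate 5 for Mcm7, at 11.90 against 12.08.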

How the results depend on the processing

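None of the cell cycle genes was called under 17 of 18 alternatives, which include each array left out, and 1 (Mki67, adjusted p = 0.0495) with an intensity trend and robust moderation. Over its other alternatives the adjusted p of Mki67 ran from 0.0713 (without scrambled replicate 5) to 0.287, and its change from -0.17 to -0.11. The median changes of the 3 roles moved by less than the spread between arrays. With 1 array left out they ran from -0.0191 to 0.0381 (replication), -0.0444 to 0.0035 (G1/S control) and -0.0383 to 0.0110 (mitosis). Over all genes, 193 calls (146 higher, 47 lower) became 385 (253 and 132) with the replicate block, 303 (233 higher) with the trend and 115 (91 and 24) with the most variable probe set. With 1 array left out, 92 to 201 were called (78 to 160 higher, 14 to 41 lower), with 95, 92, 123 and 101 without antisense replicate 3, 4 or 5 or scrambled replicate 3. The block changed no call among the named genes. Signs turned for Mcm7 (0.0192) and Cdk6 (0.0215) with the mean of probe sets, and for Mcm7 (0.0464), Cdk6 (0.18) and Cdc25c (0.0730) with the most variable one, and with 1 array left out Mcm7 ran from -0.0398 to 0.0106 and Ccnd2 from -0.0324 to 0.0074. Cdkn1a missed the threshold without a filter (adjusted p = 0.0534), where more genes were tested, and with the most variable probe set (0.0778). The other causes were not tested. Signal over background limits Tyms and Cdkn2a.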

Other observations

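Among the CDK inhibitor genes outside the list, only Cdkn1a passed the test (log2 change 0.19). Cdkn2b had a change of 0.06 (SE 0.094), Cdkn1c of 0.01 and Cdkn2d of -0.10, none past the threshold. Of the E2F genes, E2f7, which encodes a repressor of the family and is known as a p53 target, was at 0.12 (SE 0.054, limma adjusted p = 0.387, and 0.129 with the replicate block) and higher in the antisense array of 5 of 5 pairs. The activator gene E2f2 was at -0.08 and lower in all 5 pairs, E2f3 at -0.00, the repressor genes E2f4, E2f5 and E2f6 at 0.04, -0.01 and -0.05, and E2f8 at -0.02. Myc, a driver of growth and of entry into the cycle, was at 0.14 (SE 0.077, adjusted p = 0.506), and Foxm1 and Mybl2, which encode activators of mitotic genes, were at -0.05 and -0.02. None of these E2F, Myc, Foxm1 and Mybl2 changes passed the test. All 5 pairs were higher in antisense for 10.6% and lower for 6.71% of all genes tested.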
